A study of Mus musculus with 24 samples.

Results

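Fibroblasts are recognised by a small set of genes rather than by a single one, and 10 of them were followed here through oncogenic transformation of mouse embryonic fibroblasts. They were taken by name: Thy1, Pdgfra, Pdgfrb, Fap, S100a4, Twist1, Twist2, Prrx1, Snai1 and Snai2. Each had 1 probe set with that symbol alone on the Affymetrix Mouse Gene 1.0 ST array, and the 10 genes stood among 14830 genes that passed a filter on low values (a value over the 40th percentile of its array in 3 or more of the 24). Of the 10, 8 exceeded that percentile on all 24 arrays, Pdgfra did so on 19 and Fap on 8. Fap therefore entered the tests only through untransformed total RNA, where all 6 arrays exceeded it, and its passing the filter is no support for its difference. Its other arrays over it were 1 untransformed Het polysomal and 1 transformed Het total array, too few for the filter. The counts of called members below include Fap and carry the same limit. The members and the other gene lists were also chosen with earlier results of these data known. Setting their counts beside the share over all genes is therefore a description and no independent test.

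The 4 kinds of culture were Eif4e+/- (Het) fibroblasts transformed with Ras and Myc, untransformed Het fibroblasts, transformed wild type (WT) fibroblasts and untransformed WT fibroblasts. Het cells carry 1 intact copy of Eif4e, the gene of the translation factor that binds the mRNA cap, and they carry it in both states. Cells of 3 Het and 3 WT embryos (E13.5) were used, and the labels trace both states to the same numbered embryos, so each group held 3 cultures; cells were of early passage and were harvested while growing exponentially in medium with 10% serum. Each culture was read as RNA from heavy polysomes (cycloheximide, 100 µg/ml, was given before lysis, and cytoplasmic extracts were spun through a 10 to 50% sucrose gradient) and as total RNA. The vectors that carried Ras and Myc, the species of those genes and whether transformed cultures were clones or pools are points not given in the sources used here.

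Thy1 is a surface glycoprotein held in the membrane by a lipid anchor. Pdgfra and Pdgfrb are the receptor tyrosine kinases for platelet-derived growth factors (PDGFs), which drive division and migration of mesenchymal cells, and Fap is a surface serine protease of activated fibroblasts. Twist1, Twist2, Prrx1, Snai1 and Snai2 are transcription factors of mesenchymal cells: the Twist proteins are basic helix-loop-helix factors, Prrx1 is a homeodomain protein of limb and craniofacial mesenchyme, and the Snail proteins Snai1 and Snai2 are zinc finger repressors of epithelial genes such as Cdh1. S100a4 is a small calcium-binding protein, also called fibroblast-specific protein, although macrophages and other cells make it too.

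Values are log2 intensities, and each fraction has its own scale: array means lay between 3.78 and 3.79 in polysomal RNA and between 7.46 and 7.503 in total RNA. As a level with little specific RNA, the 95th percentile of olfactory receptor probe sets was used (here the background level), which lay between 3.25 and 3.59 on polysomal arrays and between 6.67 and 6.93 on total arrays. The Eif4e probe set followed the genotypes in total RNA, at 8.84 to 9.21 in transformed Het cells against 9.40 to 9.80 in transformed WT cells, and at 8.69 to 8.88 in untransformed Het cells against 9.03 to 9.21 in untransformed WT cells. The Myc probe set read 8.63 to 10.18 in transformed cells and 10.80 to 11.26 in untransformed cells of both genotypes, and gives no check of the introduced gene. In untransformed total RNA all 10 fibroblast genes stood above the background level on all 6 arrays. In bulk RNA, fewer cells of a type and less RNA per cell cannot be told apart, and all tests rest on 3 embryos per genotype.

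Transformation left the 10 genes with different fates in total RNA. A gene is called where its adjusted p is under 0.05 (limma with embryo as a block, Benjamini-Hochberg over all 14830 genes). It is written as lost where it was called lower and all 3 transformed arrays lay at or under the background level, and as lowered where it was called lower and any of them lay above. In Het cells Thy1, Fap and Snai1 were lowered, 3 of 10, where 8.58% of all genes were called lower. In WT cells 6 of 10 were called lower, where 9.08% of all genes were: Fap was lost, and Thy1, Pdgfrb, Snai2, Prrx1 and Snai1 were lowered. The Het count was 5 without WT embryo 3, 1 without Het embryo 1 or 2 and 0 without Het embryo 3, and the WT count was 5 whichever embryo was left out. None of the 10 was called higher in either genotype (5.68% of all genes in Het cells and 7.62% in WT cells were). Pdgfra, S100a4, Twist1 and Twist2 were called in neither genotype and stayed above the background level on all 6 transformed arrays of total RNA.

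**Figure D1:**
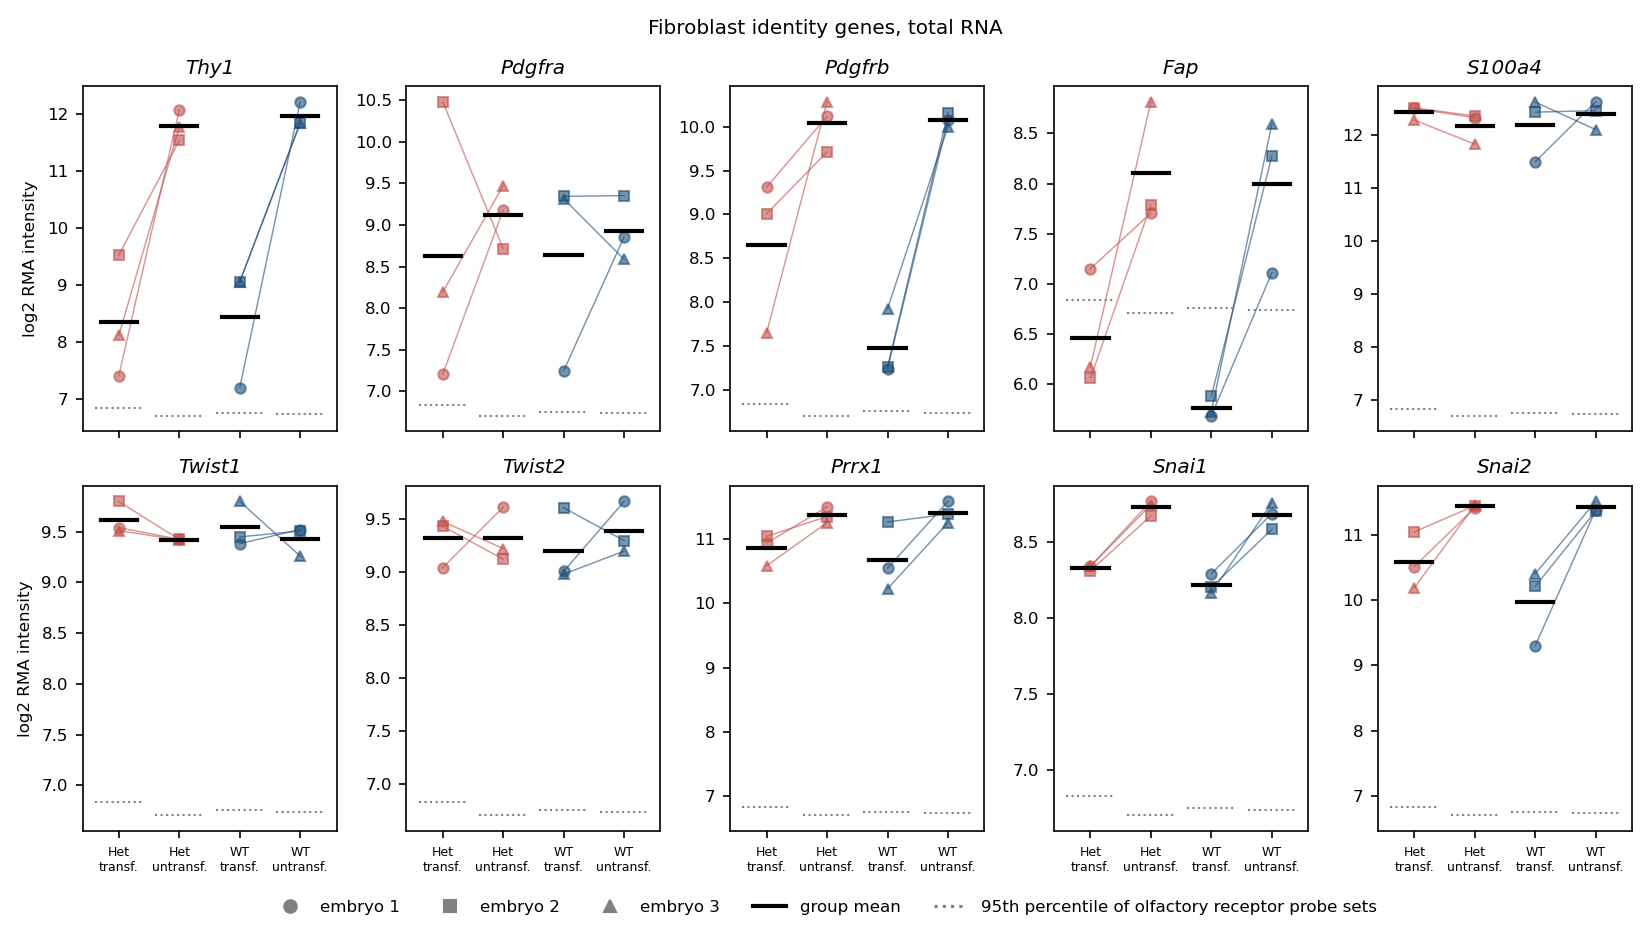
Log2 intensity in total RNA (y axis, own range per panel) of the 10 fibroblast genes by genotype and state (x axis). Points are cultures, marked by embryo and joined within an embryo, black bars are means of 3 cultures and the dotted line is the 95th percentile of olfactory receptor probe sets; Thy1 is lower in all 6 transformed cultures and Fap of transformed WT cells lies at 5.68 to 5.88, under the dotted line.

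Among the surface proteins, Thy1 (probe set 10584628) had the largest estimated fall. In Het embryos 1, 2 and 3 its level was 7.41, 9.52 and 8.12 in transformed cells, against 12.07, 11.54 and 11.77 in untransformed cells. In WT embryos it was 7.20, 9.05 and 9.06 in transformed cells, against 12.22, 11.85 and 11.84 in untransformed cells. The states did not overlap, and the spread between cultures was wider after transformation (SD 1.08 in Het and 1.07 in WT, against 0.27 and 0.22 before, n = 3 each). Thy1 fell by 3.44 on the log2 scale in Het cells, 10.9-fold (95% interval 4.17 to 28.4, adjusted p = 0.0130), and by 3.53 in WT cells, 11.6-fold (4.43 to 30.2, adjusted p = 0.00996). By embryo the fall was 4.03-fold to 25.4-fold in Het cells and 6.86-fold to 32.4-fold in WT cells. The Het call was lost without Het embryo 1 (adjusted p = 0.0782) or Het embryo 3 (adjusted p = 0.0926), with the change at -2.83 and -3.34. Thy1 remained above the background level on all 6 transformed arrays.

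Of the PDGF receptors, Pdgfrb was called lower in WT cells and Pdgfra in neither genotype. Pdgfrb (probe set 10456046), which binds mainly the B and D ligands, read 9.31, 9.01 and 7.65 in transformed Het cells, against 10.12, 9.71 and 10.29 in untransformed Het cells. The WT cultures gave 7.24, 7.26 and 7.92 after transformation, against 10.08, 10.16 and 10.00 before. All 6 embryos were lower after transformation, and Het embryo 3 lay close to the WT cultures while Het embryos 1 and 2 did not. The WT fall was 2.61 on the log2 scale, 6.09-fold (95% interval 3.29 to 11.3, adjusted p = 0.00649). The Het difference was -1.38, 2.61-fold (1.41 to 4.83), and missed the threshold at adjusted p = 0.0531, passing without the embryo block (adjusted p = 0.0219) and without WT embryo 3 (adjusted p = 0.0478). It also passed with median centring (adjusted p = 0.049), a filter at the 60th percentile (0.0485) and array weights (0.0276).

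Pdgfra (probe set 10522503), the receptor for all PDGF ligand chains but D, had no common direction. It read 7.20, 10.48 and 8.19 in transformed Het cells, against 9.18, 8.72 and 9.48 in untransformed Het cells. In WT cells the values were 7.24, 9.34 and 9.32 after transformation, against 8.86, 9.35 and 8.59 before. Transformed cultures spanned values under and over the untransformed ones, and 4 of 6 embryos were lower and 2 higher. The difference was -0.50 in Het cells (fold 1.41, 95% interval 0.426 to 4.68, adjusted p = 0.681) and -0.30 in WT cells (fold 1.23, 0.371 to 4.07, adjusted p = 0.823), folds being untransformed over transformed. Both intervals hold a severalfold fall as well as a rise, so Pdgfra is not shown to be unchanged.

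Fap (probe set 10483081) was the one member lost by the rule above, in WT cells. It read 7.15, 6.05 and 6.17 in transformed Het cells, against 7.70, 7.79 and 8.82 in untransformed Het cells. Transformed WT cells had 5.68, 5.88 and 5.72, against 7.11, 8.27 and 8.59 in untransformed WT cells. Of the transformed cultures, Het embryo 1 alone was above the background level. The fall was 1.64 on the log2 scale in Het cells, 3.12-fold (95% interval 1.61 to 6.08, adjusted p = 0.0400), and 2.23 in WT cells, 4.69-fold (2.41 to 9.13, adjusted p = 0.0136). With 2 of 3 transformed Het arrays and all 3 transformed WT arrays at or under the background level, these folds rest on values that are bounds. With such arrays set at the background level, the fall was at least 2.26-fold in Het cells and at least 2.36-fold in WT cells. The Het call was lost with a trended and robust prior (adjusted p = 0.0546) and when Het embryo 2 (0.124), Het embryo 3 (0.201, change -1.14) or WT embryo 2 (adjusted p = 0.0586) was left out. Leaving out WT embryo 2 also ended the WT call (adjusted p = 0.0684).

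Of the transcription factors, the Snail genes and Prrx1 were called lower in at least 1 genotype and the Twist genes in neither. For 4 of the 5 the RefSeq promoter table (GRCm38.p6) held a window, and the 250 bases before the transcript start are printed 5′ to 3′ on the gene's strand, so that the genes called lower can be set beside those not called. Capitals mark matches on either strand to 5 short motifs: CAGGTG (an E-box bound by Snail proteins), CATATG (an E-box form bound by Twist), CACGTG (the E-box bound by Myc), TGANTCA (AP-1) and GGGCGG (the GC box). They are the Snai1 window at chr2:167537945-167538194 (+), the Prrx1 window at chr1:163313651-163313900 (-), the Twist1 window at chr12:33957421-33957670 (+) and the Twist2 window at chr1:91801211-91801460 (+).
Snai1: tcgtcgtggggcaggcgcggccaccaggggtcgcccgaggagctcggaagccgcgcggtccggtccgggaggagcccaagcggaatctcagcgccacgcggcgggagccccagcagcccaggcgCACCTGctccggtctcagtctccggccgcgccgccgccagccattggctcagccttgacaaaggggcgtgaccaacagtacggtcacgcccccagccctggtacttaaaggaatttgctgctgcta
Prrx1: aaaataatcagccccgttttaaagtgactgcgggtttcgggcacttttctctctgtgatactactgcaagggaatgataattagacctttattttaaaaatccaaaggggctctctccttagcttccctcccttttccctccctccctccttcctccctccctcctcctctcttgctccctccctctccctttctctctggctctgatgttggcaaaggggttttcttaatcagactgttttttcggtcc
Twist1: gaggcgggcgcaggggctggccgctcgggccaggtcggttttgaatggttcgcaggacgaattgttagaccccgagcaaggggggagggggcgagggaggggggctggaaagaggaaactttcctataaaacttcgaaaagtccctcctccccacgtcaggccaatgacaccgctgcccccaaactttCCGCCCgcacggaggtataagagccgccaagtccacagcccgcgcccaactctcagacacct
Twist2: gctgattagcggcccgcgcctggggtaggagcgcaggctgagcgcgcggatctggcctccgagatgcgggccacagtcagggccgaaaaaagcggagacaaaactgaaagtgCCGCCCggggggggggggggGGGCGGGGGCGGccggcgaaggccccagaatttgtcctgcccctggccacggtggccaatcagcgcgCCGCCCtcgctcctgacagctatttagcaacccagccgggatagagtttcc
The Snai1 window held 1 Snail E-box, 126 bases before the start, and no other match. The Prrx1 window held none of the 5 motifs. The Twist1 window held 1 GC box, 62 bases before the start, and the Twist2 window held 4, none of which overlap. Over 32851 promoter windows of the same length, 17.2% held the Snail E-box, 3.46% the Twist E-box, 6.02% the Myc E-box, 6.75% the AP-1 motif and 32.7% the GC box, so both kinds of match found here are common. GC content was 70% in Snai1, 47.6% in Prrx1, 62.4% in Twist1 and 68.8% in Twist2, against a median of 52.4%. A match is a string of letters and not a measured binding site. Of the other members, Pdgfra and S100a4 had windows with none of the 5 motifs, and Thy1, Pdgfrb, Fap and Snai2 had no entry in that table.

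Snai1 (probe set 10478884) had the smallest fall of the genes called. It read 8.34, 8.31 and 8.34 in transformed Het cells, against 8.76, 8.67 and 8.74 in untransformed Het cells. In WT cells it read 8.29, 8.20 and 8.16 after transformation, against 8.68, 8.58 and 8.76 before. The states did not overlap, and the 3 cultures of a state lay close together (SD 0.02 to 0.09). The fall was 0.40 on the log2 scale in Het cells, 1.32-fold (95% interval 1.17 to 1.49, adjusted p = 0.0175), and 0.46 in WT cells, 1.37-fold (1.21 to 1.55, adjusted p = 0.00932). Without Het embryo 1, 2 or 3 the Het adjusted p was 0.102, 0.0561 and 0.109, with the change between -0.38 and -0.41.

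Snai2 (probe set 10433776), its close relative, was called in WT cells. It read 10.51, 11.04 and 10.19 in transformed Het cells, against 11.41, 11.44 and 11.45 in untransformed Het cells. The WT cultures gave 9.30, 10.21 and 10.40 after transformation, against 11.38, 11.36 and 11.51 before. The untransformed cultures lay close together (SD 0.02 in Het and 0.08 in WT) and every transformed culture was below them. The WT fall was 1.45 on the log2 scale, 2.72-fold (95% interval 1.88 to 3.95, adjusted p = 0.00843). The Het difference was -0.85, 1.81-fold (1.24 to 2.62), at adjusted p = 0.0507, and passed without the embryo block (adjusted p = 0.0433) and without WT embryo 1 (0.0271) or WT embryo 3 (adjusted p = 0.0447). It also passed with quantile normalization (adjusted p = 0.0492), median centring (0.0444), a filter at the 60th percentile (0.0463) and array weights (0.0221).

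Prrx1 (probe set 10359624) read 10.93, 11.04 and 10.58 in transformed Het cells, against 11.49, 11.34 and 11.25 in untransformed Het cells. Transformed WT cells had 10.54, 11.26 and 10.22, against 11.58, 11.38 and 11.25 in untransformed WT cells. All 6 embryos were lower after transformation, though transformed WT embryo 2 stood level with the lowest untransformed WT culture. The WT fall was 0.73 on the log2 scale, 1.66-fold (95% interval 1.22 to 2.25, adjusted p = 0.0399), and the Het difference was -0.51 (1.43-fold, 1.05 to 1.94, adjusted p = 0.113). The WT call ended when WT embryo 1 (adjusted p = 0.188), WT embryo 3 (0.121) or any of the 3 Het embryos (0.0713, 0.0568 and 0.0703) was left out, while the Het difference passed without WT embryo 2 (adjusted p = 0.0214) and with array weights (0.0482).

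Neither Twist gene was called in total RNA. Twist1 (probe set 10395320) read 9.54, 9.80 and 9.51 in transformed Het cells, against 9.43, 9.42 and 9.42 in untransformed Het cells. In WT cells it read 9.38, 9.45 and 9.80 after transformation, against 9.52, 9.51 and 9.26 before. Transformed Het cultures were all above the untransformed ones and the WT states overlapped. The difference was 0.19 in Het cells (95% interval of the fold 0.908 to 1.44, adjusted p = 0.389) and 0.11 in WT cells (0.859 to 1.36, adjusted p = 0.632).

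Twist2 (probe set 10348632) read 9.04, 9.43 and 9.48 in transformed Het cells, against 9.61, 9.12 and 9.22 in untransformed Het cells. The WT cultures gave 9.01, 9.61 and 8.98 after transformation, against 9.67, 9.30 and 9.20 before. The states overlapped in both genotypes. The difference was -0.19 in WT cells (fold of untransformed over transformed 1.14, 95% interval 0.787 to 1.65, adjusted p = 0.620), and in Het cells the fold was 1.00 (0.691 to 1.45, adjusted p = 0.998).

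S100a4 (probe set 10493812) was called in neither genotype. It read 12.50, 12.52 and 12.28 in transformed Het cells, against 12.33, 12.36 and 11.83 in untransformed Het cells. Transformed WT cells had 11.50, 12.43 and 12.63, against 12.63, 12.46 and 12.10 in untransformed WT cells. WT embryo 1 was the lowest culture after transformation and, before it, the highest of its group. The difference was 0.26 in Het cells (fold of transformed over untransformed 1.20, 95% interval 0.762 to 1.89, adjusted p = 0.554) and -0.21 in WT cells (fold of untransformed over transformed 1.16, 0.737 to 1.83, adjusted p = 0.648).

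**Figure D2:**
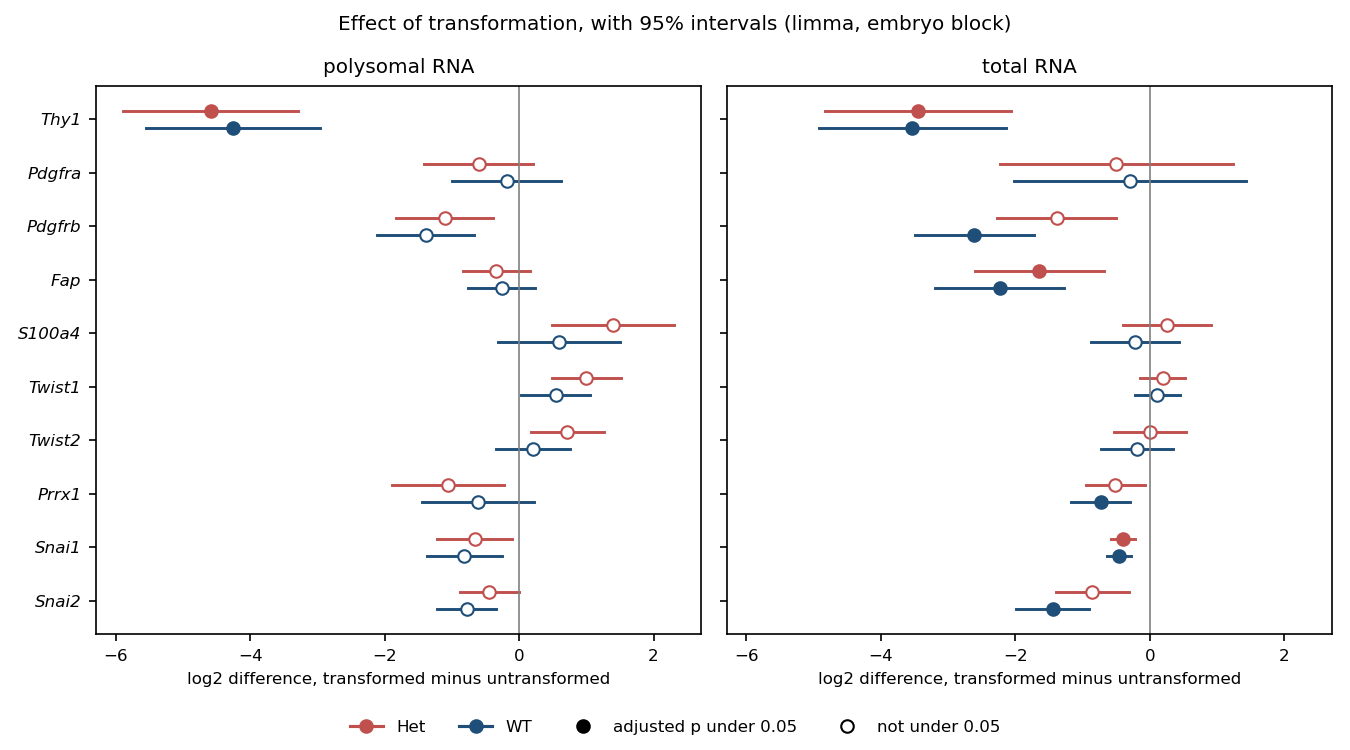
Log2 difference, transformed minus untransformed (x axis), of the 10 fibroblast genes (y axis) in polysomal RNA (left) and total RNA (right). Points are limma estimates for Het and WT cells with 95% intervals and are filled where the adjusted p is under 0.05; in total RNA Thy1 stands furthest left at -3.44 in Het cells and -3.53 in WT cells, and in polysomal RNA it is the only filled gene.

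With both genotypes averaged in the same fit, which uses the same arrays again, 6 of 10 genes were called lower in total RNA and none higher, where 15.8% of all genes were called lower and 15% higher. The 6 were Thy1 at -3.49 (adjusted p = 0.00152), Pdgfrb at -1.996 (0.00227), Fap at -1.94 (0.00337), Snai2 at -1.15 (0.00272), Prrx1 at -0.62 (0.0126) and Snai1 at -0.43 (adjusted p = 0.00173). Each was lower in 6 of 6 embryos, which describes the same arrays and is no further support. Prrx1 missed the threshold without Het embryo 3 (adjusted p = 0.0532). For the remaining 4 the averaged differences were -0.40 for Pdgfra, 0.02 for S100a4, 0.15 for Twist1 and -0.10 for Twist2, and their adjusted p ran from 0.287 to 0.942.

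In polysomal RNA, the mRNA that carries many ribosomes, Thy1 was the member called in each genotype taken alone. It read 5.31, 6.71 and 4.91 in transformed Het cells, against 10.56, 9.87 and 10.26 in untransformed Het cells. In WT cells it read 4.37, 6.65 and 6.28 after transformation, against 10.17, 10.56 and 9.33 before. Every transformed culture was far below the untransformed ones, in both genotypes. The fall was 4.59 on the log2 scale in Het cells, 24.0-fold (95% interval 9.77 to 59.1, adjusted p = 0.0123), and 4.25 in WT cells, 19.1-fold (7.76 to 46.9, adjusted p = 0.0160). That was 1 of 10 called lower in each genotype, where 1.31% of all genes were in Het cells and 0.904% in WT cells, and no member was called higher, where 0.479% and 0.378% of all genes were. The call was lost without Het embryo 1 or 3 in Het cells (adjusted p = 0.105 and 0.153) and without WT embryo 1 or 2 in WT cells (0.0756 and 0.0967), with changes of -3.48 to -4.42. All 6 transformed arrays still stood above the background level for Thy1. Polysomal arrays of untransformed WT embryo 1 and transformed WT embryo 3 had the smallest spread over probe sets. Without the embryo block, Pdgfrb and Twist1 were called too in Het cells (adjusted p = 0.0467 and 0.0261) and Pdgfrb in WT cells (0.0194). With those 2 arrays left out as well, the Het values were 0.0469 and 0.0253, and Pdgfrb was not called in WT cells. Without WT embryo 3 alone, Pdgfrb (adjusted p = 0.0329), S100a4 (0.0167), Twist1 (0.0110) and Prrx1 (0.0157) joined Thy1 in Het cells and Pdgfrb joined it in WT cells (adjusted p = 0.0132).

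Averaged over the genotypes, 4 members were called lower in polysomal RNA and 1 higher, where 4.05% of all genes were called lower and 3.67% higher. Thy1 fell by 4.42 on the log2 scale (adjusted p = 0.00123), Pdgfrb by 1.25 (0.0152), Snai1 by 0.74 (0.0396) and Snai2 by 0.61 (adjusted p = 0.0334). Pdgfrb read 4.40, 3.96 and 3.51 in transformed Het cells, against 5.003, 4.62 and 5.57 in untransformed Het cells. The WT cultures gave 3.38, 3.35 and 3.54 after transformation, against 5.02, 5.004 and 4.42 before, so that transformed WT cultures lay barely over the background level. Pdgfrb lost the call without WT embryo 1 or 2 (adjusted p = 0.0548 and 0.0559).

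Twist1 was the member called higher in polysomal RNA. It read 5.28, 5.65 and 5.92 in transformed Het cells, against 4.64, 4.35 and 4.87 in untransformed Het cells. Transformed WT cells had 4.98, 5.25 and 5.41, against 4.76, 4.86 and 4.39 in untransformed WT cells. Transformed cultures were above untransformed ones in both genotypes, without overlap. The averaged rise was 0.77 on the log2 scale, 1.71-fold (95% interval 1.33 to 2.19, adjusted p = 0.0248). It was lost under quantile normalization (adjusted p = 0.0692) and when WT embryo 2 (0.0622) or any of the 3 Het embryos (0.0554, 0.0964 and 0.113) was left out, at changes of 0.69 to 0.86.

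In polysomal RNA the Snail genes passed in the averaged comparison of the main fit and in neither genotype alone. Under other settings Snai1 passed in WT cells with quantile normalization (adjusted p = 0.0429) and in Het cells with array weights (0.0495). Snai1 read 6.14, 5.65 and 6.26 in transformed Het cells, against 6.91, 6.61 and 6.50 in untransformed Het cells, and 5.96, 5.67 and 5.42 in transformed WT cells, against 6.55, 6.13 and 6.83 in untransformed WT cells. Snai2 read 5.12, 5.35 and 5.09 in transformed Het cells, against 5.65, 5.50 and 5.75 in untransformed Het cells, and 4.23, 5.12 and 5.10 in transformed WT cells, against 5.28, 5.64 and 5.87 in untransformed WT cells. Neither gene's states overlapped in either genotype. The averaged calls of both were lost with a trended and robust prior (adjusted p = 0.0784 for Snai1 and 0.086 for Snai2), and that of Snai1 with median centring (adjusted p = 0.0534). Each was also lost when any embryo other than WT embryo 3 was left out, at 0.0633 to 0.139 for Snai1 and 0.0588 to 0.148 for Snai2.

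S100a4 on polysomes read 10.80, 11.29 and 10.77 in transformed Het cells, against 10.36, 9.03 and 9.28 in untransformed Het cells. In WT cells it read 9.37, 10.998 and 11.20 after transformation, against 9.24, 10.91 and 9.62 before. The Het states were apart and the WT states overlapped. The averaged difference was 1.00 (fold 1.99, 95% interval 1.28 to 3.11) and missed the threshold at adjusted p = 0.0713, passing without WT embryo 3 (adjusted p = 0.0467). The last 4 members were not called there. Prrx1 differed by -0.83 (adjusted p = 0.0942), Twist2 by 0.46 (0.147), Pdgfra by -0.39 (0.447) and Fap by -0.30 (0.322). Prrx1 passed under quantile normalization (adjusted p = 0.0347) and without WT embryo 2 (0.0358). Polysomal Fap lay at or under the background level on all 6 transformed arrays, reading 2.48 to 2.78, against 2.67 to 3.53 in untransformed cells, so a change of Fap could not be read in that fraction. Pdgfra exceeded the background level on 1 of 3 transformed Het arrays and 2 of 3 transformed WT arrays.

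**Figure D3:**
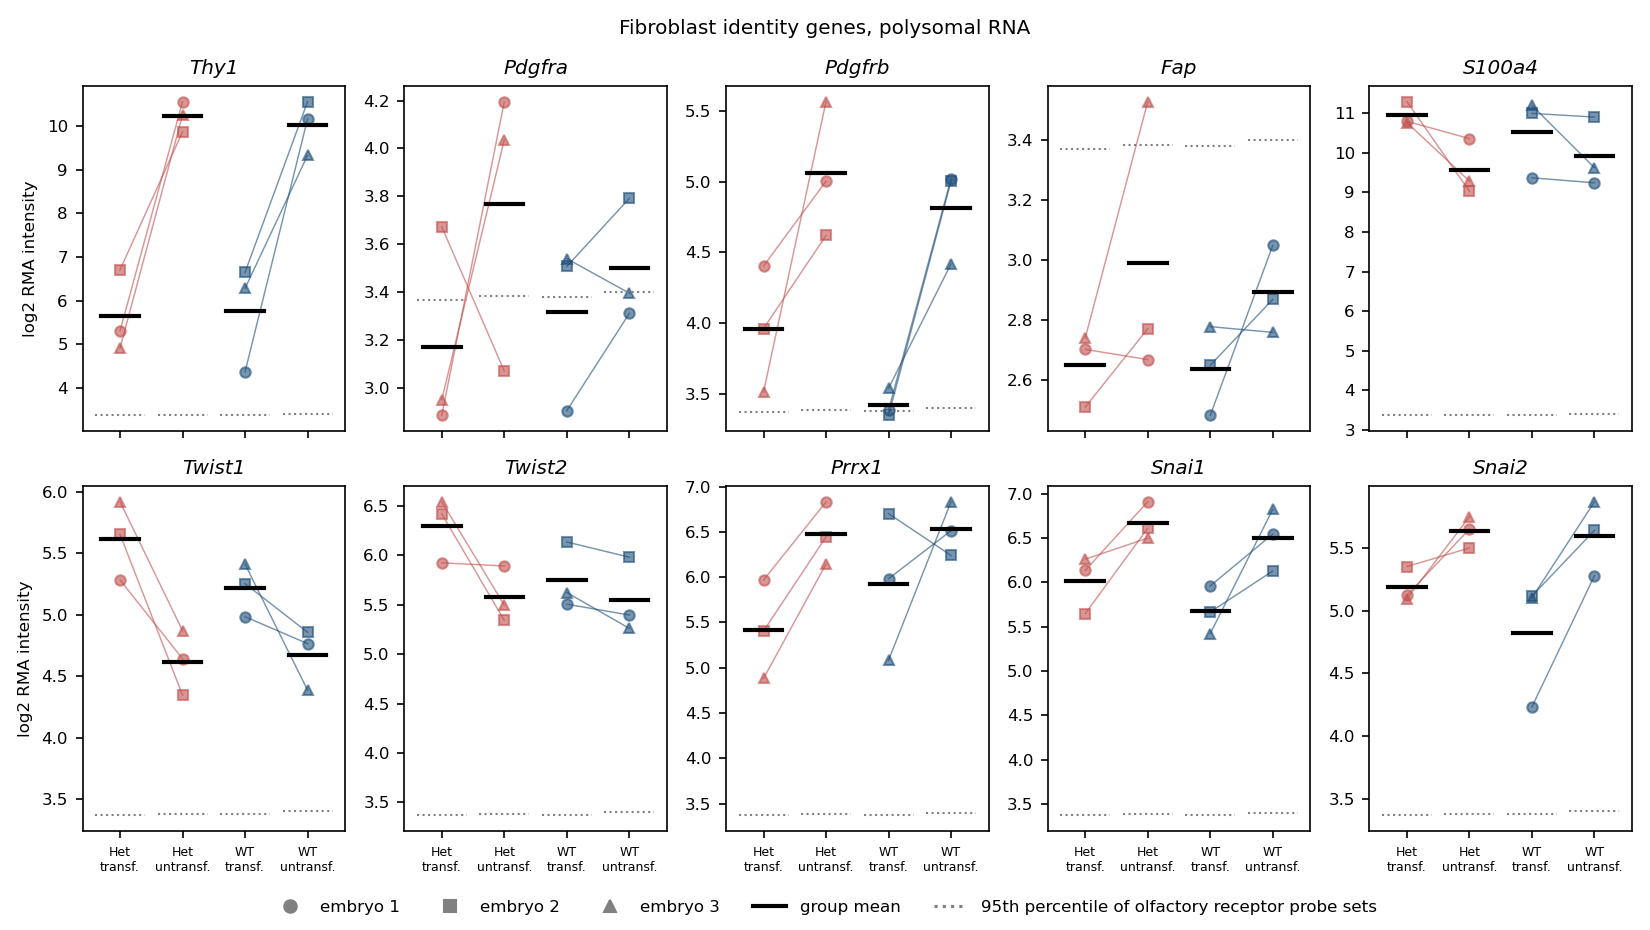
Log2 intensity in polysomal RNA (y axis, own range per panel) of the 10 fibroblast genes by genotype and state (x axis), with cultures marked by embryo and joined within an embryo, means of 3 cultures as black bars and the 95th percentile of olfactory receptor probe sets dotted. Thy1 of transformed cells lies between 4.37 and 6.71, Twist1 lies higher in all 6 transformed cultures than in the untransformed culture of the same embryo, and Fap lies under the dotted line in transformed cells.

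Whether Eif4e dose changed these fates was asked by the difference of the transformation effects between genotypes. No member was called, and none of 14830 genes was in total RNA, polysomal RNA or translational efficiency (0% in each; an unadjusted p under 0.05 was reached by 723, 314 and 289 genes). In total RNA Pdgfrb had the smallest p of the members: its fall was smaller in Het cells than in WT cells by 1.22 on the log2 scale (95% interval -0.03 to 2.48, adjusted p = 0.916). By embryo its change was -0.81, -0.71 and -2.64 in Het cells, against -2.84, -2.90 and -2.08 in WT cells, and an exact two-sided permutation test over these 3 and 3 embryos gave p = 0.2, where 0.1 is the smallest it can give. Snai2 was next at 0.59 (-0.17 to 1.35, adjusted p = 0.916; exact p = 0.3). These p-values do not show that the genotypes act alike.

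Het and WT cells were also set against each other within a state, and no member was called in total or polysomal RNA. Of all genes, 0.0472% were called in transformed total RNA and 0% in untransformed total RNA and in polysomal RNA of either state. In transformed total RNA the Het minus WT difference was 1.18 for Pdgfrb (95% interval 0.40 to 1.97, adjusted p = 0.352), with 2 of 3 Het cultures above all WT cultures. It was 0.61 for Snai2 (0.04 to 1.18, adjusted p = 0.503) and 0.70 for Fap (-0.20 to 1.60, adjusted p = 0.626). In untransformed total RNA all 10 differences lay between -0.23 for S100a4 and 0.19 for Pdgfra.

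Translational efficiency (TE) was taken as the series describes it, log2 polysomal minus log2 total of a culture. Whether both fractions were normalized together is a point the sources used here leave unstated, and the SD over probe sets was 1.15 to 1.44 on polysomal arrays and 1.71 to 1.81 on total arrays, so TE has no absolute scale and its changes set differences on 2 scales against each other. In WT cells Pdgfrb was called higher after transformation, 1 of 10 where 0.506% of all genes were, and no member was called lower (0.196% of all genes). In Het cells none was called in either direction (0.297% of all genes). The WT Pdgfrb change was 1.203, 1.246 and 1.199 in embryos 1, 2 and 3, a rise of 1.22 (95% interval of the fold 1.72 to 3.14, adjusted p = 0.0304), and in Het cells it was 0.21, 0.05 and 0.59 (adjusted p = 0.681). That WT rise is a smaller fall on polysomes (-1.39) than in total RNA (-2.61), and the transformed polysomal values it rests on lay at 3.35 to 3.54, near the background level. The call was lost with a trended and robust prior (adjusted p = 0.0566) and when WT embryo 1 (0.160), WT embryo 2 (0.185) or any of the 3 Het embryos (0.0944, 0.0767 and 0.0748) was left out. The difference between genotypes was -0.94 (adjusted p = 0.9999; exact permutation p = 0.1, the smallest possible).

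Averaged over the genotypes, a comparison added after the data were seen, Thy1 was called lower in TE (0.971% of all genes were), and Pdgfrb, Twist1 and Fap were called higher (1.81% of all genes were). The Fap call is not read as a change in TE, since polysomal Fap lay at or under the background level on 11 of 12 arrays and the call carries the fall in total RNA. Thy1 fell by 0.93 on the log2 scale (adjusted p = 0.0331) and was lower in 6 of 6 embryos, its log2 difference being -4.42 on polysomal arrays and -3.49 on total arrays. Twist1 rose by 0.62 (adjusted p = 0.0477) and was higher in 6 of 6 embryos. Pdgfrb rose by 0.75 (adjusted p = 0.0243) and was higher in 6 of 6 embryos, with polysomal values near background in transformed WT cells. S100a4 at 0.97 (adjusted p = 0.0833) and Snai2 at 0.54 (adjusted p = 0.0986) were also higher in 6 of 6 embryos without passing. These directions describe the same arrays as the tests and are no further support. The calls of Thy1, Pdgfrb and Twist1 were each lost when any embryo other than WT embryo 3 was left out, where Thy1 had an adjusted p of 0.0513 to 0.165. Leaving out the cultures of the 2 polysomal arrays of smallest spread together with the embryo block ended the calls of Thy1 (adjusted p = 0.0534) and Twist1 (0.0584).

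**Figure D4:**
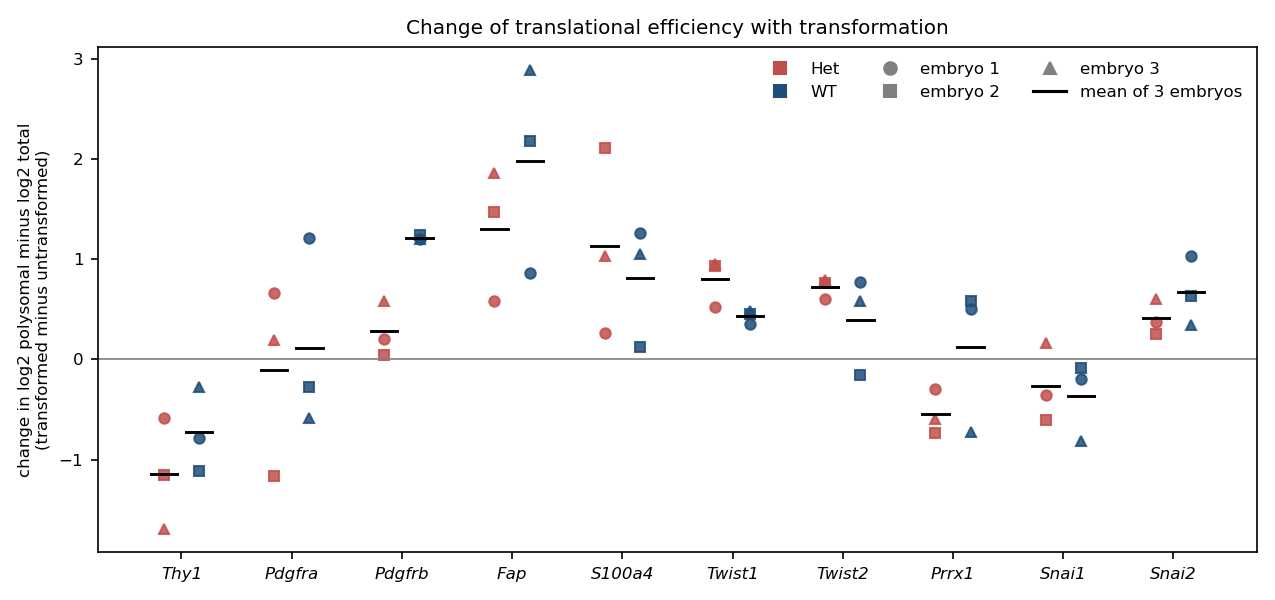
Change in log2 polysomal minus log2 total with transformation (y axis) for each of the 10 genes (x axis), Het left of WT within each gene. Points are embryos and bars are means of 3. Thy1 lies under 0 in all 6 embryos, and Twist1, Snai2, S100a4, Pdgfrb and Fap lie over 0 in all 6. WT Pdgfrb lies between 1.199 and 1.246, and polysomal Fap was at or under background on 11 of 12 arrays.

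Transformed cultures of a group differed widely for some members and little for others. In transformed total RNA the SD over 3 cultures was 1.68 in Het cells and 1.21 in WT cells for Pdgfra, and 1.08 and 1.07 for Thy1, against 0.02 and 0.07 for Snai1. The cultures low in Thy1 were also low in Pdgfra: Het embryos 1 and 3 and WT embryo 1 had Thy1 at 7.20 to 8.12 and Pdgfra at 7.20 to 8.19, and the other cultures had Thy1 at 9.05 to 9.52 and Pdgfra at 9.32 to 10.48. Over the 6 transformed cultures Thy1 and Pdgfra correlated at r = 0.986 (permutation p = 0.00556; Spearman rho = 0.886, p = 0.0333), and at r = 0.972 without the 2 cultures farthest from the median of Thy1. Of 45 pairs of members this was the one of smallest p, named after values were seen, and its adjusted p was 0.25. On polysomes the same pair gave r = 0.935 (permutation p = 0.0403, adjusted p = 0.363; rho = 0.771, p = 0.103), with Pdgfra near background. Untransformed cultures gave r = 0.662 (permutation p = 0.144, adjusted p = 0.547; rho = 0.657, p = 0.175) on polysomes, and r = 0.904 without the 2 cultures farthest from the median of Thy1. In total RNA they gave r = 0.085 (permutation p = 0.840, adjusted p = 0.884; rho = 0.0857, p = 0.919), and r = -0.0859 without those 2. Whether the states differ in this correlation was not tested. No pair passed adjustment in either state or fraction, and 3 cultures per genotype are too few for a value within each genotype.

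**Figure D5:**
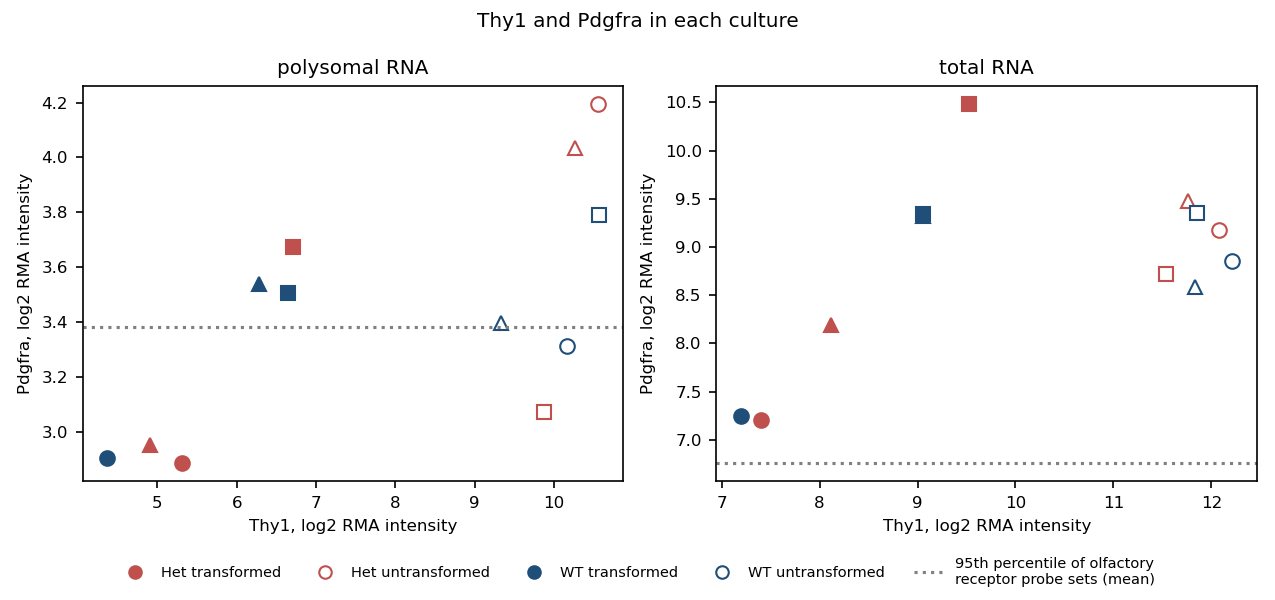
Log2 intensity of Pdgfra (y axis) against Thy1 (x axis) in each culture, polysomal RNA left and total RNA right, with transformed cultures filled and untransformed ones open and the mean background level dotted. In total RNA 3 transformed cultures sit at 7.20 to 8.12 on the Thy1 axis and 3 at 9.05 to 9.52, where WT embryos 2 and 3 lie on top of each other; all untransformed cultures lie at 11.54 or more.

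Genes that act around the PDGF receptors were read beside them. Of 16 measured ligand and adaptor genes, 7 were called lower and 0 higher in total RNA averaged over genotypes, with a median difference of -0.24 against 0.03 over all genes. Over all genes 15.8% were called lower and 15% higher in this comparison, which holds for each list that follows. Pdgfd, a ligand of Pdgfrb, fell by 1.41 on the log2 scale (adjusted p = 0.0063) and Pdgfc, a ligand of Pdgfra, by 0.90 (adjusted p = 0.00532). Pdgfrl, a receptor-like secreted protein, fell by 0.77 and Ptpn11, a phosphatase that binds activated receptors, by 0.48 (adjusted p = 0.000555 and 0.00118). The lowest transformed values of Pdgfd (6.68) and Pdgfrl (6.67) lay under the background level, so these falls rest in part on bounds.

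Of 21 partners and relatives of Twist and Snail, 4 were called lower and 2 higher with a median of -0.05, against 15.8% lower and 15% higher over all genes. Id3 and Id4, which bind helix-loop-helix proteins and keep them off DNA, fell by 1.00 and 1.29 (adjusted p = 0.0011 and 0.00141). Zeb2, another zinc finger repressor of epithelial genes, fell by 0.70 (adjusted p = 0.00167), and Tcf4, a dimer partner of Twist proteins, rose by 0.40 (adjusted p = 0.0306). Of 33 other mesenchymal transcription factors, 16 were called lower and 2 higher (median -0.25), among them Dlx5 at -0.88, Foxc2 at -0.85 and Meis1 at -1.21.

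Further surface markers of mesenchymal cells gave 10 of 24 lower and 1 higher, where 15.8% of all genes were called lower and 15% higher. Mcam fell by 2.99 on the log2 scale (adjusted p = 0.000124) and Cd248 by 1.51 (adjusted p = 0.00117), while Cd34 rose by 2.76 (adjusted p = 0.00129). Matrix and other secreted fibroblast products gave 21 of 30 lower and 0 higher (median -0.71), among them Timp3 at -3.29 and Fbln2 at -1.90. Surface proteases near Fap in function gave 5 of 8 lower and 1 higher: Adam12 fell by 2.44 and Mmp14 by 0.95, and Plau, the urokinase gene, rose by 1.34 (adjusted p = 0.000728). The lowest transformed value of Adam12, 6.56, lay under the background level, so its fall rests in part on a bound. Contractile genes of myofibroblasts gave 12 of 12 lower, with a median of -1.86. In the S100 family 1 of 11 was called lower and 2 higher, not far from those shares.

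Markers of other cells were read in the same arrays. Epithelial markers, some of which Snail and Zeb proteins repress, gave 1 of 24 lower and 2 higher: Cdh3 fell by 1.14 and Krt18 rose by 1.76. The lowest transformed value of Cdh3, 6.67, lay under the background level. The mean over the 30 measured epithelial genes lay between 6.97 and 7.32 in transformed total RNA and between 7.04 and 7.20 in untransformed total RNA. Leukocyte markers gave 7 of 12 lower and 1 higher, among them Lyz2, which read 5.35 to 6.33 in transformed cells against 9.32 to 10.50 in untransformed cells. All 6 transformed values of Lyz2 lay under the background level, against which its fall was at least 7.91-fold. The limma estimate, made without that bound, was -3.97 on the log2 scale (adjusted p = 0.000171). The mean of the 14 measured leukocyte genes was 6.65 to 6.85 in transformed cells and 7.24 to 7.46 in untransformed cells, and 7 of 14 lay at or under background on all transformed arrays of each genotype. Such genes, Lyz2 among them, could pass the filter on low values through untransformed arrays, where they were higher. Passing it is therefore no support for their falls or for the count of 7 of 12. Set against 15.8% lower and 15% higher over all genes, endothelial markers gave 2 of 9 lower and 2 higher, muscle 3 of 10 and 0, cartilage and bone 2 of 10 and 1, adipocyte 2 of 7 and 1, and neural 4 of 12 and 3. The endothelial genes called lower, Emcn and Kdr, read 5.81 to 6.07 and 6.04 to 6.36 in transformed cells. The adipocyte gene Cd36 read 4.71 to 4.98 there, and all these values lay under the background level. Genes of these lists could also pass the filter through the state where they were higher. Passing it is no support for their changes or for these counts. Leukocytes make S100a4, and their part in its values, like that of any other cell type in the falls of the members, was not tested.

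Over the 12 arrays of total RNA, the genes most like each member are given as a description, since all share the contrast of the 2 states. Thy1 was closest to Pdia4 (r = 0.985) and Flrt2 (0.985), Pdgfrb to Col1a1 (0.980) and Ext1 (0.980), Snai2 to Lox (0.985) and Col12a1 (0.984), and Snai1 to Tln2 (0.979) and Zdbf2 (0.971). Fap was closest to Cyb5r1 (0.976) and Bcat1 (0.964), and Prrx1 to Sema6a (0.939) and Cyba (0.938). The members that were not called had Spon2 (0.962) and Lcmt1 (0.941) for Twist1, Igsf10 (0.932) and Ap3b1 (0.910) for Pdgfra, Tmem43 (0.924) and Cd2bp2 (0.867) for S100a4, and Prokr2 (0.857) and Prr23a1 (0.837) for Twist2.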

How the data were processed

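Total RNA and heavy polysomal RNA of 12 cultures were hybridised to 24 arrays (Affymetrix Mouse Gene 1.0 ST), 3 per group. The authors deposited log2 intensities from RMA, per the series description and the submitters' processing notes; its version and the chip definition are not given in the sources used here. Of 25668 probe sets, 20777 carried 1 gene symbol in the platform annotation, 232 several and 4659 none; only the first were used. The brightest probe set stood for each of the 564 genes with more than 1. Log2 differences were fitted with limma 3.58.1 in R 4.3.3 (lmFit and eBayes) over all 12 arrays of a fraction. Transformation effects and their difference between genotypes had embryo as a block (4 residual degrees of freedom), since the labels match both states by embryo; genotype effects used 4 group means (8 residual degrees of freedom). P-values were adjusted by Benjamini-Hochberg over 14830 genes and called under 0.05. The precision is limited by 3 cultures per group. Deviations of the 2 states of an embryo from their group means correlated at 0.045, 0.219 and 0.209 in Het and 0.125, 0.064 and -0.058 in WT embryos in total RNA, and at 0.062, 0.019 and 0.053 in Het and -0.119, -0.052 and -0.438 in WT embryos in polysomal RNA, so in most cases the pairing rests on the labels.

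The members and the gene lists were chosen with earlier results of these data known. All 10 members are named in every comparison; of each other list the genes named were among the 4 called genes of smallest p in total RNA averaged over genotypes, and the genes most like a member were the 2 with the highest Pearson r over the 12 total RNA arrays. Background was read from 1025 olfactory receptor probe sets. The fits were tested on simulated data.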

Additional observations from a re-analysis of the deposited data

How the results depend on the processing

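No call of a member changed direction under any alternative: the fit without the embryo block, quantile normalization, median centring, no filter or a filter at the 60th percentile, the mean of all probe sets, array weights, a trended and robust prior, and leaving out each embryo. The number of the 10 members called in total RNA of WT cells was 6 in the main fit and 5 or 6 under all of these. In total RNA of Het cells it was 3, but 5 without the replicate block, with median centring or with the 60th percentile filter, 6 with array weights, and 0 to 5 with an embryo left out. There Snai2 joined with quantile normalization (adjusted p = 0.0492), and Fap dropped out with a trended and robust prior (0.0546). Averaged over genotypes the count was 6, and 5 to 6 with an embryo left out. In polysomal RNA of WT cells it was 1, but 2 without the replicate block, with quantile normalization or with array weights, and 0 to 2 with an embryo left out. In polysomal RNA of Het cells it was 1, but 3 without the replicate block, 3 without both that block and the 2 polysomal arrays of smallest spread, 6 with array weights, and 0 to 5 with an embryo left out. Averaged in polysomal RNA it was 5, but 3 with a trended and robust prior, and 2 to 6 with an embryo left out. There Snai1 dropped out with median centring (adjusted p = 0.0534). With quantile normalization Twist1 dropped out (adjusted p = 0.0692) and Prrx1 joined (0.0347). In TE of WT cells the count was 1, but 2 without the replicate block, with quantile normalization, with array weights or without both the block and the cultures of those 2 arrays, and 0 to 2 with an embryo left out. Wherever 2 were called, the added one was Fap, whose TE calls are not read as a change. With a trended and robust prior Fap was called (adjusted p = 0.034) in place of Pdgfrb (0.0566). In TE of Het cells the count was 0, but 2 with array weights, 1 without both the block and those cultures (0 without the block alone), and 0 to 3 with an embryo left out. The 1 was Fap (adjusted p = 0.0167), and Fap was among the 3 called without WT embryo 3 (0.0219). Averaged in TE the count was 4, Fap included, but 2 with a trended and robust prior or without both the block and those cultures (5 without the block alone), and 0 to 6 with an embryo left out. For the difference between genotypes and for the genotype effects it was 0 throughout. Twist1 lost its averaged TE call under quantile normalization (adjusted p = 0.106) and the 60th percentile filter (adjusted p = 0.0607). Snai2 gained an averaged TE call with array weights (adjusted p = 0.0224).

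Over all genes, the main fits called 2476 in total RNA of WT cells (952 to 2382 with an embryo left out), 2115 in Het cells (326 to 2561), 190 in polysomal RNA of WT cells (21 to 1735) and 266 in Het cells (0 to 1321). Averaged over genotypes they called 1145 in polysomal RNA (306 to 2746) and 413 in TE (94 to 1540). Without WT embryo 3 the polysomal and TE counts were the highest, and the cause was not tested. Leaving out the 2 polysomal arrays of smallest spread and averaging TE over the genotypes were chosen after seeing the data. Values near background, as for Fap and Pdgfra in polysomal RNA, limit what that fraction can show.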
